A study of Mus musculus with 23 samples.

Results

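Monocytes and dendritic cells were sought among single cells of mouse brain that had been sorted by how much of a labelled antibody they carried. A barcode was selected when it held at least 500 genes, at least 800 UMIs (unique molecular identifiers, each counting 1 captured transcript) and at most 10% mitochondrial UMIs, and when at least 3 of the marker genes Plac8, Ccr2, Chil3, Ly6c2, Napsa, S100a4, Cd209a, Plbd1, Ifitm6 and Lsp1 had a UMI. It also had to lack UMIs of Mrc1, Pf4, Tmem119, P2ry12, Cd79a, Cd3d and Retnlg, and to hold more marker UMIs than UMIs of Cldn5, Flt1, Aqp4 and Gja1 together. The rule selected 370 of 249715 kept barcodes, out of 265025 in the matrix. Of 974 kept barcodes with 3 or more markers, 561 were left out for an excluded gene and 43 for the comparison with endothelial and astrocyte genes alone.

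The antibodies carried the fluorescent dye AF647 and were injected into the tail vein at 45 mg/kg, 24 hours before the brains were taken. ATV-TfR, an antibody transport vehicle that binds the transferrin receptor, was given to TfR mu/hu KI mice. ATV-CD98hc, which binds the heavy chain of the CD98 amino acid transporter, was given to CD98hc mu/hu KI mice. C57BL/6J mice received control IgG, so treatment and genotype cannot be told apart. The sample labels give an age of 3.3 months and the series' design text 12 weeks, which are not the same age. All 3 antibodies carry the label LALAPG, a set of Fc substitutions known to weaken binding to Fc gamma receptors. Brains were perfused with PBS and taken without olfactory bulbs, cerebellum, pons and medulla, and actinomycin D and anisomycin, which block transcription and translation, were present during dissociation. Live cells were sorted into AF647-negative, low, medium and high bins, with gates set as tertiles of the positive cells of ATV-TfR and applied to every treatment. Each pool held cells of 1 male and 1 female mouse, with 2 pools per treatment. The 23 libraries cover every pool and bin except the negative bin of control IgG pool 1, which was not analysed here. By flow cytometry, about 30% of cells were positive with ATV-TfR, 20% with ATV-CD98hc and 1% with control IgG, per the labels. Shares within a library describe that bin and not the brain.

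Monocytes are blood leukocytes that arise in the bone marrow. The classical type, high in Ly6c2 and Ccr2, enters tissue and can become macrophages or dendritic cells, and the non-classical type patrols the inner face of vessels. Dendritic cells take up antigen and present it on MHC class II. Conventional type 1 cells (cDC1; Xcr1, Clec9a) are specialised in presenting dead-cell antigen to CD8 T cells, type 2 cells (cDC2; Cd209a, Clec10a, Mgl2) mainly address CD4 T cells, and plasmacytoid cells (Siglech, Ly6d) secrete type I interferon. In the healthy brain these cells are scarce and sit mostly in the meninges, the choroid plexus and the vessel lumen. Both cell types can bind and internalise IgG through Fc receptors.

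The libraries held 526 to 20570 kept barcodes, with a median of 2190 to 4985 UMIs per kept barcode. Over all their barcodes, kept or not, they held 1861238 to 90307818 UMIs. Selected barcodes had a median of 4373 UMIs and 1967.5 genes, against 3761 UMIs over all kept barcodes. Their UMIs ran from 871 to 20135. Scrublet marked 8 of the 370 as doublets (2.16%), against 6.28% of kept barcodes. In several libraries, among them the high bins of both ATVs, the cut was a fixed percentile of the doublet score. The rate over kept barcodes was thereby set in advance there, so nothing is drawn from the comparison. No selected barcode sequence was a kept barcode in another bin of the same pool, and 17 were also kept barcodes of another library. Of 241978 distinct barcode sequences, 7598 occurred in more than 1 library. By sex-linked transcripts, 117 selected barcodes read as male, 125 as female, 16 as both and 112 as neither.

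The markers that chose the barcodes are given as a description only. Lsp1, a leukocyte actin-binding protein, had a UMI in 91.1% of the 370, Napsa, an aspartic protease, in 78.4%, Plbd1 in 71.4% and S100a4 in 66.5%. Ccr2, the receptor that draws monocytes out of the marrow, was seen in 61.4% and Plac8 in 60.8%. Ifitm6 was seen in 43.2%, Chil3 in 31.9%, Ly6c2 in 30.0% and Cd209a, a lectin of cDC2, in 7.57%. In 99371 astrocyte barcodes (median 4120 UMIs) these shares were 0.873% for Lsp1, 0.0876% for Napsa, 0.0815% for Ccr2 and 0.0574% for Plac8. S100a4 had the highest share of the 10 there, at 3.25%. At the edge of the rule, the 82 barcodes with exactly 3 markers had a median of 2661 UMIs and 7 marker UMIs, and the 123 that missed by 1 marker had 2501 UMIs and 3 marker UMIs.

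Leaving out genes named Rpl, Rps or mt-, which encode ribosomal proteins and mitochondrial transcripts, the most abundant transcripts of the selected barcodes were Tmsb4x, Malat1, Lyz2, Cd74, Cst3, S100a9, Actb, Gm42418, S100a8 and Fau. Lyz2, the lysozyme of myeloid cells, had a UMI in 85.9% and 13211 CPM (counts per 1000000 UMIs). Cd74, the chaperone of MHC class II, had a UMI in 64.3%. S100a9 and S100a8, which encode a cytosolic calcium-binding complex abundant in neutrophils, ranked 6 and 9 by UMIs although only 5.41% and 6.76% of the barcodes held any.

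Clustering split the 370 barcodes into 11 sub-clusters. Of these, 5 were named from monocyte and dendritic markers and hold 257 barcodes. The classical monocyte-like cluster had 81 barcodes and was led by Fn1 (fibronectin), F13a1 and Lyz2, with Fn1 at 1482 CPM against 156 CPM in the other selected barcodes. The non-classical monocyte-like cluster had 72, led by Eno3, Ace and Gngt2, with Ace in 79.2% of its barcodes, and its median of 2477 UMIs was the lowest of the 11. The cDC2-like cluster had 52 barcodes and was led by Retnla, Mgl2, Cd209a and Clec10a. Cd209a was at 352 CPM there and 22.0 CPM elsewhere, while the Retnla signal came from 5.77% of its barcodes. The cDC1-like cluster had 46 barcodes, with Clec9a in 87.0%, Xcr1 in 84.8% and Wdfy4 in 97.8%. Ptgds, its top gene by fold, was present in 10.9%. The plasmacytoid DC-like cluster had 6 barcodes, all with Siglech.

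The remaining clusters passed the rule but were not named as monocytes or dendritic cells. An NK cell-like cluster (24 barcodes) carried Skap1, Il2rb and Gzmb. A neutrophil-like cluster (15 barcodes) was led by S100a9 and by Camp and Ngp, granule genes of maturing neutrophils, with S100a9 at 125139 CPM. A cluster of 9 barcodes was led by Mpo, Ctsg, Prtn3 and Elane, azurophil granule genes made by early granulocyte and monocyte precursors, with Ly6c2 also among its top 10 genes. It held 6 of 9 classical monocyte and 3 of 6 developing neutrophil list genes, and stayed unnamed. A cluster of 22 was led by the complement genes C1qb, C1qa and C1qc, which macrophages and microglia make, and stayed unnamed. Sub-cluster 5, with 31 barcodes, had Lsamp and Gpc5 among its leading genes and held all 6 astrocyte list genes, with a median of 7923 UMIs. Sub-cluster 9, with 12 barcodes, had Igfbp7 among its leading genes, held all 8 endothelial and all 6 oligodendrocyte list genes, and had a median of 8774.5 UMIs. Both mixed clusters were left unnamed. Results are therefore given for all 370 barcodes and, where the counts lead, for the 257 of the named monocyte and dendritic clusters.

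**Figure D1:**
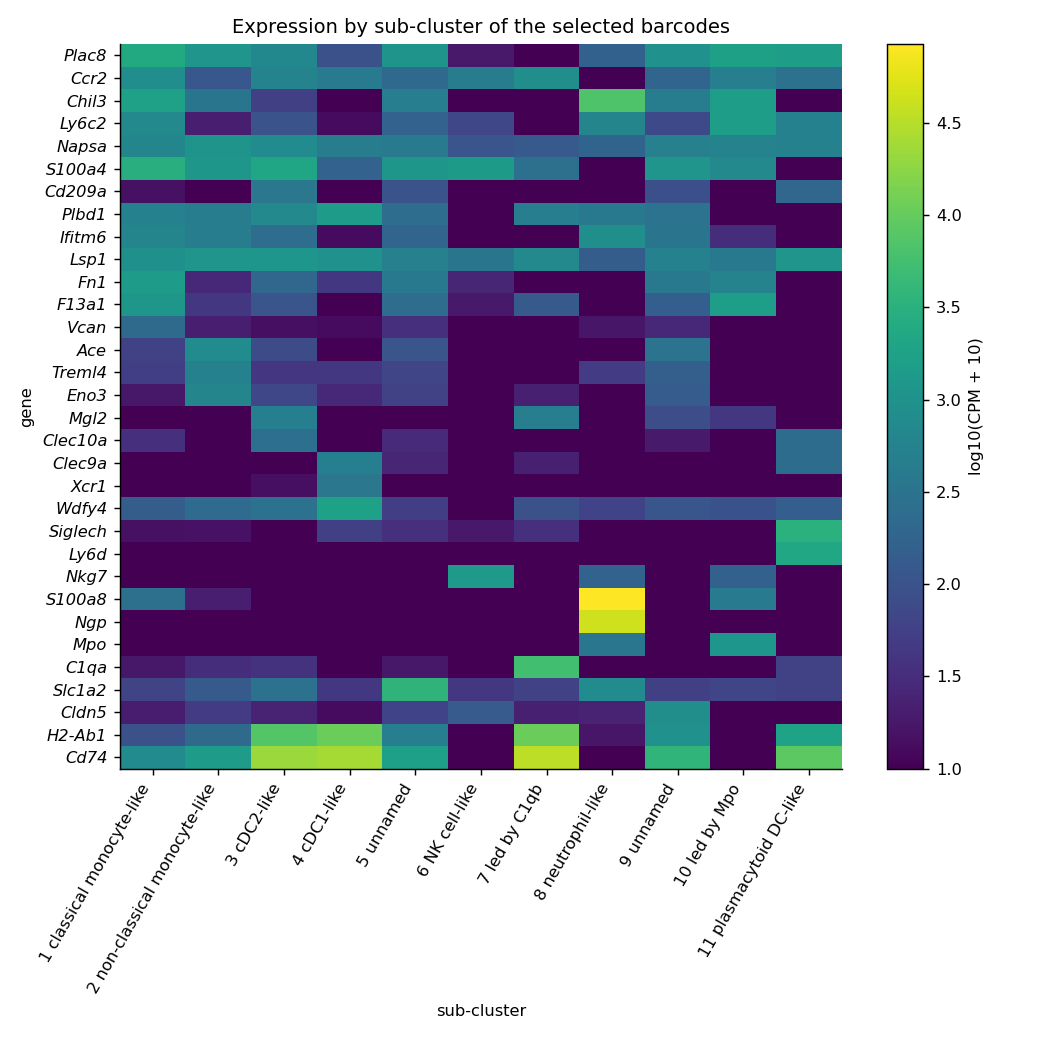
Expression of rule markers and cluster markers (rows) in the 11 sub-clusters of the selected barcodes (columns), as log10 of CPM plus 10, from UMIs summed over each cluster. Markers of classical monocytes, non-classical monocytes, cDC2 and cDC1 separate in sub-clusters 1 to 4, and S100a8, Nkg7, C1qa, Slc1a2 and Cldn5 are high in clusters that were not named as monocytes or dendritic cells.

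The sub-clusters differed in how they fell over treatments. Classical monocyte-like barcodes were 20 and 18 of the selected barcodes of the ATV-TfR pools (29.9% and 30.5%), 15 and 4 in ATV-CD98hc (19.5% and 9.52%) and 13 and 11 in control IgG (20.3% and 18.0%). The cDC1-like share was low in both ATV-TfR pools, with 2 of 67 and 2 of 59 barcodes. It was 13 of 77 and 6 of 42 in ATV-CD98hc, and 14 of 64 and 9 of 61 in control IgG. Counted by genes instead, barcodes with a UMI of at least 3 cDC1 list genes numbered 8 and 8 with ATV-TfR, 17 and 7 with ATV-CD98hc and 16 and 10 with control IgG, so by this count the pools lay closer. The cDC2-like barcodes numbered 12 and 11 with ATV-TfR, 3 and 5 with ATV-CD98hc and 10 and 11 with control IgG. Non-classical monocyte-like barcodes numbered 11 and 5 with ATV-TfR, 15 and 10 with ATV-CD98hc and 16 and 15 with control IgG. By list genes, the cDC2 counts were 5 and 6, 1 and 2, and 3 and 3 in the same order, and the non-classical monocyte counts 28 and 21, 28 and 15, and 25 and 27. Of the 6 plasmacytoid barcodes, 5 came from ATV-CD98hc. Sub-cluster 5 drew 20 barcodes from ATV-TfR and 11 from ATV-CD98hc, with 0 from control IgG. These counts come from clusters made on the same barcodes and were not tested.

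Over the bins, 24 of the 38 classical monocyte-like barcodes of ATV-TfR lay in the medium bin and 0 in the negative bin, while 22 of the 24 of control IgG lay in the low bin. In ATV-CD98hc, 12 of 19 were in the low bin. Of all selected barcodes, 61 of 126 with ATV-TfR lay in the medium bin and 18 in the negative bin. The low bin held 77 of 125 with control IgG and 79 of 119 with ATV-CD98hc, so the ATV-CD98hc count was near that of all selected barcodes. Non-classical monocyte-like barcodes of control IgG spread over low (13), medium (12) and high (6) bins. Of the 46 cDC1-like barcodes, 33 were in low bins, against 188 of all 370 selected barcodes. The NK cell-like cluster stood apart, with 13 of its 24 barcodes in negative bins, against 35 of all 370. All 4 neutrophil-like barcodes of ATV-TfR were in the high bin, which held 15 of its 126 selected barcodes, and all 6 of control IgG in the low bin. These counts by bin were not tested.

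**Figure D2:**
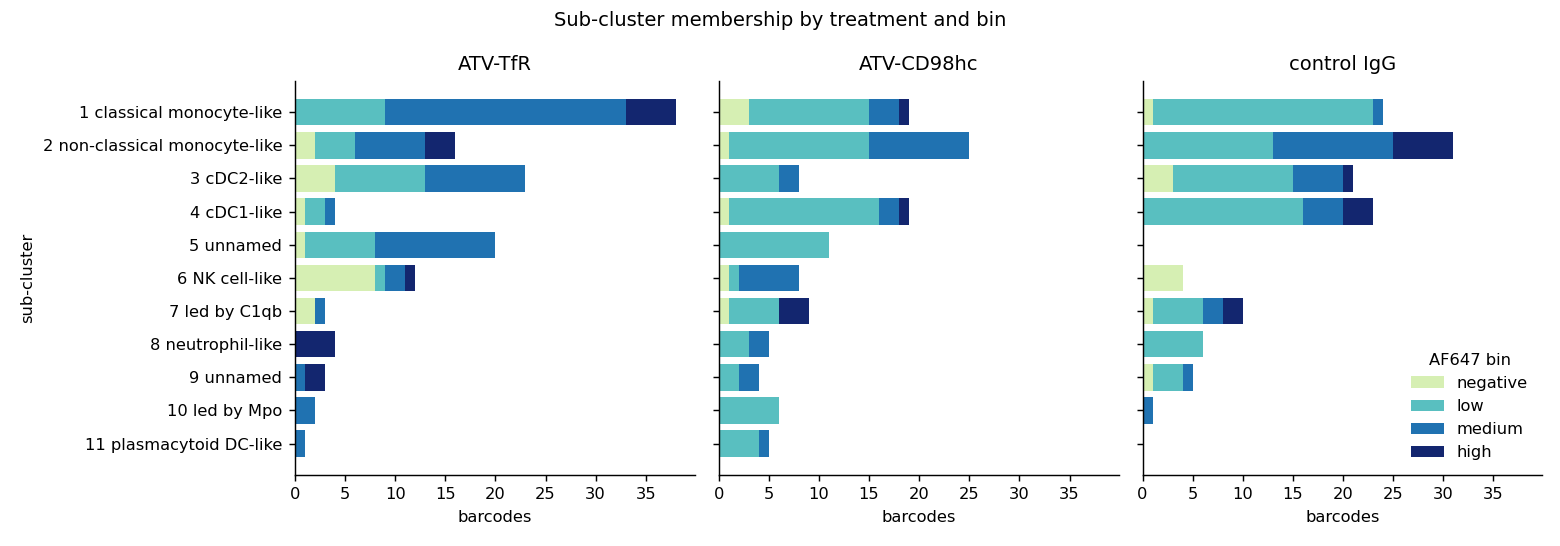
Barcodes of each sub-cluster (bars, stacked by AF647 bin from negative to high) in each treatment, with the same horizontal axis in the 3 panels. The cDC1-like bar is 4 barcodes long for ATV-TfR, 19 for ATV-CD98hc and 23 for control IgG, and sub-cluster 5 has none in control IgG.

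Both antibody targets averaged lower in the selected barcodes than in endothelial barcodes, and Tfrc was scarce. Tfrc, the transferrin receptor gene, reached 22.4 and 19.9 CPM in the ATV-TfR pools, 30.9 and 33.2 CPM in ATV-CD98hc and 6.86 and 26.1 CPM in control IgG. The 6 pools averaged 23.2 ± 9.46 CPM (SD, n = 6 pools), and 7.84% of the barcodes held a UMI. In endothelial barcodes, where the receptor carries iron across the capillary wall, Tfrc averaged 409 ± 157 CPM (SD, n = 6 pools). Every pool of selected barcodes was below the lowest endothelial pool, at 202 CPM. Slc3a2, which encodes CD98hc, averaged 61.6 ± 26.6 CPM in the selected barcodes, 161 ± 41.4 CPM in microglia and 464 ± 167 CPM in endothelial barcodes (SD, n = 6 pools each). Slc3a2 was at 74.7 and 108 CPM with ATV-TfR, 37.6 and 38.8 CPM with ATV-CD98hc and 58.3 and 52.1 CPM with control IgG. Within the named clusters it was at 30.8 and 51.3, 39.3 and 26.1, and 68.6 and 45.0 CPM in the same order, from 3 to 16 UMIs per pool. The higher level with ATV-TfR was thus not seen there. How the knock-in alleles were counted is not given in the sources used here.

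Fc receptor genes were present. Fcer1g, the signalling chain of the activating receptors, averaged 1815 ± 374 CPM in the selected barcodes, close to microglia (2279 ± 506 CPM), border macrophages (2169 ± 172 CPM) and neutrophils (1604 ± 199 CPM; SD, n = 6 pools each). Fcgr3, a low-affinity activating receptor, was at 124 ± 42.3 CPM against 534 ± 77.7 CPM in microglia, without overlap between pools (highest 197 CPM, lowest microglial pool 422 CPM). Fcgr1, the high-affinity receptor, was at 61.6 ± 27.4 CPM against 271 ± 35.8 CPM in microglia. Fcgr2b, the inhibitory receptor, was at 108 ± 31.5 CPM against 454 ± 31.1 CPM in border macrophages. Fcgr4 was at 30.7 ± 12.5 CPM and overlapped the pools of microglia, border macrophages and neutrophils. Fcgrt, the neonatal receptor that spares IgG from degradation, was at 85.0 ± 16.1 CPM against 584 ± 95.6 CPM in endothelial barcodes. These levels compare classes defined by their transcripts and carry no test. Between treatments, none of Fcgr1, Fcgr2b, Fcgr3, Fcgr4, Fcer1g, Fcgrt or Slc3a2 passed the edgeR test in the 370 barcodes. Tfrc and Trim21 were below the filter on low counts.

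**Figure D3:**
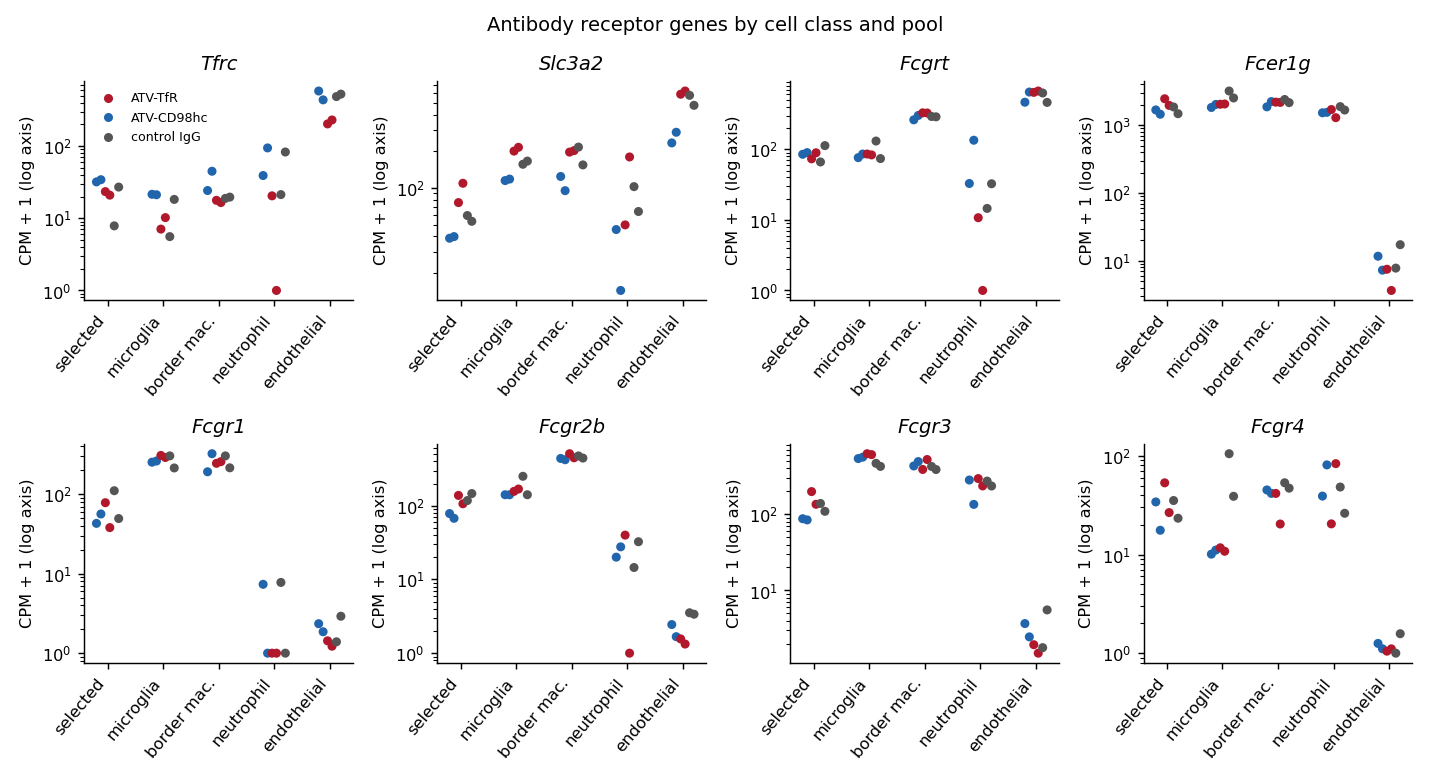
Summed CPM plus 1 (log axis) of the target genes Tfrc and Slc3a2 and of 6 Fc receptor genes in the selected barcodes and 4 other cell classes, each point 1 pool coloured by treatment. Tfrc, Slc3a2 and Fcgrt are highest in endothelial barcodes, and the selected barcodes lie below microglia and border macrophages for Fcgr1 and Fcgr3.

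By treatment, ATV-TfR gave 126 selected barcodes, ATV-CD98hc 119 and control IgG 125, and 335 of the 370 came from AF647-positive bins. Most of the 249715 kept barcodes came from positive bins too. The negative bins held 15644 kept barcodes with ATV-TfR, 10154 with ATV-CD98hc and 12167 with control IgG. With ATV-TfR there were 18, 32, 61 and 15 in the negative, low, medium and high bins. The corresponding numbers were 7, 79, 28 and 5 with ATV-CD98hc and 10, 77, 26 and 12 with control IgG. The bins differ in how many barcodes they hold, and the 6 positive control IgG libraries held only 526 to 3869 kept barcodes.

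As a share of all kept barcodes, selected barcodes were rare in ATV bins. In ATV-TfR pools 1 and 2 they made up 0.134% and 0.0901% of the negative bin, 0.105% and 0.0831% of the low bin, 0.181% and 0.207% of the medium bin, and 0.0460% and 0.0341% of the high bin. The medium bin was above and the high bin below every other ATV-TfR bin in both pools. In ATV-CD98hc they were 0.0748% and 0.0577% of the negative, 0.277% and 0.146% of the low, 0.101% and 0.0486% of the medium, and 0.0383% and 0.00748% of the high bin. The low bin was highest in both ATV-CD98hc pools and the high bin lowest. In control IgG they were 0.0822% of the single negative library. They made up 1.78% and 0.956% of the low, 2.62% and 0.999% of the medium, and 1.14% and 0.828% of the high bin. All 6 positive control IgG libraries thus lay above every ATV library. Each share rests on few barcodes; the 1 barcode of the ATV-CD98hc high bin of pool 2 allows 0.000189% to 0.0417% (exact binomial interval, counting error only).

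No trend over the 4 bins passed the exact permutation test. The slope of the logit share per bin was -0.23 with ATV-TfR (two-sided permutation p = 0.259, adjusted over the 3 treatments p = 0.259), -0.48 with ATV-CD98hc (permutation p = 0.108, adjusted p = 0.248) and 0.57 with control IgG (permutation p = 0.165, adjusted p = 0.248). The direction depended on the denominator. Of barcodes outside the endothelial class, the selected share with ATV-TfR was 0.136% and 0.0914% in the negative and 0.598% and 0.609% in the high bin. That slope was 0.60 per bin (permutation p = 0.00476, adjusted p = 0.0143). With ATV-CD98hc it was 0.52 (permutation p = 0.0460, adjusted p = 0.0690), and with control IgG 0.36 (permutation p = 0.478).

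Among immune barcodes alone (selected, microglia, border macrophages, neutrophils, B cells, T or NK cells), the selected share with ATV-TfR averaged 0.387% ± 0.0195 in the negative, 3.09% ± 0.160 in the low, 15.3% ± 3.65 in the medium and 7.14% ± 0.875 in the high bin (SD, n = 2). The slope was 1.07 per bin (permutation p = 0.00952, adjusted p = 0.0286). With ATV-CD98hc the means were 0.715% ± 0.0361, 1.72% ± 0.477, 4.35% ± 0.398 and 1.35% ± 0.848 (SD, n = 2), and the slope of 0.29 did not pass (permutation p = 0.214). With control IgG the 2 low-bin libraries held 10.6% and 7.41%, the medium 5.70% ± 3.50 and the high bin 1.39% ± 0.255 (SD, n = 2), against 0.866% in the single negative library. In each treatment the share was highest in the low or the medium bin. Microglia made up 98.3% of the immune barcodes in the ATV-TfR negative bin and 32.7% in its high bin, where border macrophages were 50%.

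**Figure D4:**
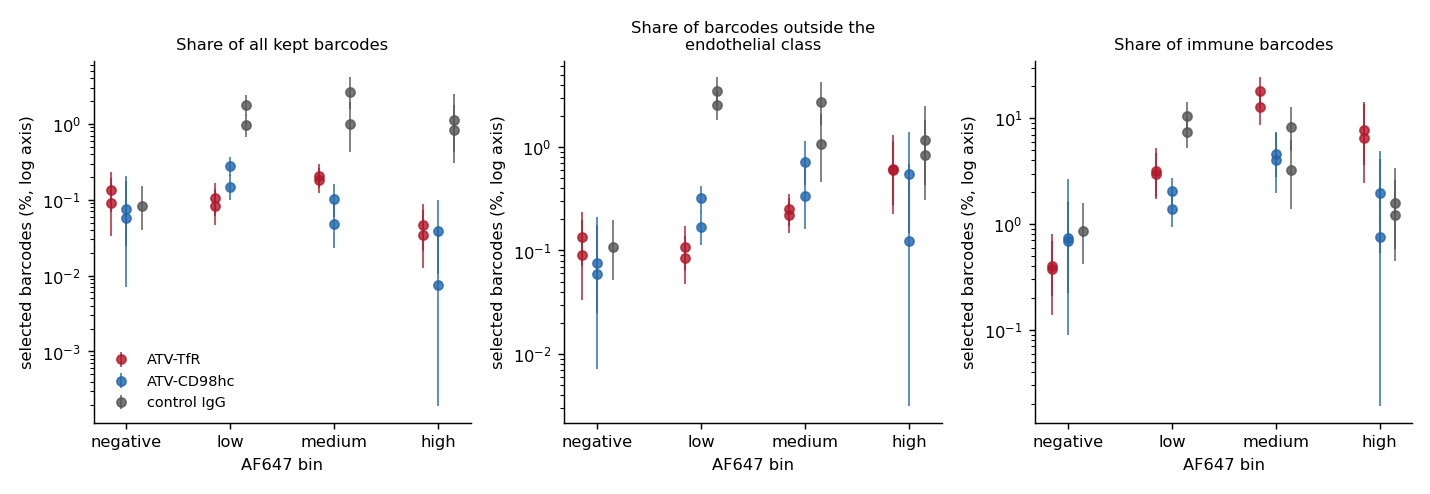
Selected barcodes as a percent of all kept barcodes, of barcodes outside the endothelial class and of immune barcodes (log axes) in each AF647 bin; each point is 1 library with its exact 95% binomial interval. Control IgG lies above both ATVs in the positive bins of the first 2 panels, whereas in the third panel ATV-TfR is above control IgG in the medium and high bins.

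Cell numbers were also tested with edgeR's quasi-likelihood test over 16 cell classes with kept barcodes as offset. Within control IgG, selected barcodes were more frequent in the high than in the negative bin by 3.54 on the log2 scale (SE 1.18, adjusted p = 0.00656), where 10 of 16 classes (62.5%) passed in either direction. They were also more frequent in the low (4.01, SE 1.06, adjusted p = 0.000568; 75% of classes called) and the medium bin (4.42, SE 1.11, adjusted p = 0.000347; 68.8% called). From the medium to the high bin the difference was -0.88 (SE 0.91, edgeR adjusted p = 0.420; 43.8% called). The negative bin of control IgG is a single library in these fits, so its spread is taken from the other groups, and no fit can leave it out. Within the ATVs, high minus negative was -1.47 (SE 0.91, edgeR adjusted p = 0.137; 62.5% called) for ATV-TfR and -1.62 (SE 1.26, edgeR adjusted p = 0.251; 62.5% called) for ATV-CD98hc. The bins of a pool come from the same animals, and with the pool as a replicate block the ATV-TfR difference of -1.47 passed (edgeR adjusted p = 0.0454), as it did with DESeq2 (-1.50, DESeq2 adjusted p = 0.0414). ATV-TfR barcodes fell from the medium to the high bin by 2.24 (SE 0.81, edgeR adjusted p = 0.0141; 81.2% called).

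The change from negative to high differed between treatments. ATV-TfR minus control IgG was -5.01 on the log2 scale (SE 1.49, edgeR adjusted p = 0.00289; 56.2% of classes called), and ATV-CD98hc minus control IgG was -5.16 (SE 1.73, edgeR adjusted p = 0.00988; 56.2% called). In the low bin, ATV-TfR minus control IgG was -3.82 (SE 0.77, edgeR adjusted p = 1.34e-05; 68.8% called) and ATV-CD98hc minus control IgG -2.67 (SE 0.72, edgeR adjusted p = 0.00108; 68.8% called). In the medium bin the differences were -3.19 (SE 0.80, edgeR adjusted p = 0.00044; 56.2% called) and -4.57 (SE 0.86, edgeR adjusted p = 4.77e-06; 68.8% called). In the high bin they were -4.55 (SE 1.05, edgeR adjusted p = 0.000127; 56.2% called) and -5.43 (SE 1.17, edgeR adjusted p = 5.93e-05; 56.2% called). Since more than 1 in 2 classes passed in these contrasts, a pass does not single out the selected barcodes. In the negative bin neither ATV passed against control IgG (0.46, SE 1.07; 25% of classes called, and -0.26, SE 1.21; 6.25% called). The change from negative to high was not told apart between the ATVs (0.15, SE 1.36, edgeR adjusted p = 0.966; 25% called). ATV-TfR and ATV-CD98hc also did not pass against each other in any bin, with log2 differences of 0.72 (SE 1.05) in the negative (18.8% of classes called), -1.16 (SE 0.74) in the low (25% called), 1.37 (SE 0.76) in the medium (31.2% called) and 0.88 (SE 1.11) in the high bin (25% called).

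Without ATV-TfR pool 1 the difference of ATV-TfR from control IgG in the change from negative to high missed the threshold (-4.91, edgeR adjusted p = 0.0590). That of ATV-CD98hc missed it without pool 1 (-6.30, edgeR adjusted p = 0.0811) and without pool 2 (-4.48, edgeR adjusted p = 0.0689). The medium-bin difference of ATV-TfR from control IgG missed it without control IgG pool 1 (-2.36, edgeR adjusted p = 0.0703), and the fall from medium to high in ATV-TfR missed it without either pool (edgeR adjusted p = 0.155 and 0.204). With immune barcodes as the offset, an alternative added after seeing the data, the contrast against control IgG turned. ATV-TfR minus control IgG in the change from negative to high was then 3.49 (edgeR adjusted p = 0.00465), and in the high bin 2.37 (edgeR adjusted p = 0.00447). With barcodes outside the endothelial class as offset, both differences from control IgG in the change from negative to high lost the call (-0.80, edgeR adjusted p = 0.691 and -0.97, edgeR adjusted p = 0.684).

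Genes were compared between treatments on UMIs summed over the selected barcodes of each pool (67 and 59 barcodes in ATV-TfR, 77 and 42 in ATV-CD98hc, 64 and 61 in control IgG; 180454 to 452539 UMIs per pool). Of 6470 genes tested with edgeR, 315 (4.87%) passed in ATV-TfR against control IgG, 240 higher (3.71%) and 75 lower (1.16%). In ATV-CD98hc against control IgG 112 passed (1.73%), 101 higher (1.56%) and 11 lower (0.17%). Between ATV-TfR and ATV-CD98hc 13 passed (0.201%), 3 higher (0.0464%) and 10 lower (0.155%). These counts include genes whose UMIs the rule used: Aqp4, Cd209a and Gja1 among the 240 higher, Aqp4 among the 101 and Cd209a among the 3, which leaves 237, 100 and 2. Nothing is drawn from those calls. The first 2 comparisons share the control pools. In such sums, a change in the make-up of the selected barcodes and a change within a cell cannot be told apart. The sums also mix the bins unequally. Over the negative, low, medium and high bins, ATV-TfR gave 18, 32, 61 and 15 barcodes and ATV-CD98hc 7, 79, 28 and 5. Control IgG gave 10, 77, 26 and 12, with no negative library in pool 1. A difference between treatments and a difference in bin mix can therefore not be told apart either. Among the 257 barcodes of the named clusters, 83, 13 and 111 of 4421 genes passed (1.88%, 0.294% and 2.51%). Of these, 30 were higher (0.679%) and 53 lower (1.2%) in the first comparison, 10 (0.226%) and 3 (0.0679%) in the next, and 35 (0.792%) and 76 (1.72%) between the ATVs. Here the rule genes were Cd209a among the 30, and Cd209a, Chil3 and S100a4 among the 35. Of the 315 calls in all 370 barcodes against control IgG with ATV-TfR, 50 were shared with the named clusters, 9 of the 112 with ATV-CD98hc, and 11 of the 13 between the ATVs.

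The genes of cDC1 were low with ATV-TfR. Clec9a, the receptor by which cDC1 recognise dead cells (a protein-coding gene at GRCm38 chromosome 6, 129408862 to 129424763), had 10.0 and 11.4 CPM with ATV-TfR, 130 and 150 CPM with ATV-CD98hc and 123 and 197 CPM with control IgG. The ATV-TfR pools lay below all others. The difference was -3.88 (SE 0.42, edgeR adjusted p = 6.27e-05) against control IgG and -3.66 (SE 0.42, edgeR adjusted p = 0.00308) against ATV-CD98hc. Xcr1, the chemokine receptor of cDC1 (GRCm38 chromosome 9, 123852315 to 123862029), had 12.5 and 8.54 CPM with ATV-TfR, 99.4 and 99.7 CPM with ATV-CD98hc and 120 and 74.5 CPM with control IgG. Its difference was -3.19 (SE 0.47) against either, with edgeR adjusted p = 0.000751 against control IgG and 0.0121 against ATV-CD98hc. Of all genes, 1.16% were called lower against control IgG and 0.155% against ATV-CD98hc. Of the 6 cDC1 list genes, 5 passed as lower against control IgG (median log2 difference -2.65, against 0.0021 over all genes) and 4 against ATV-CD98hc (median -2.38, against -0.0083). Itgae, Wdfy4 and Irf8, the transcription factor cDC1 depend on, were the others. Against control IgG, Irf8 lost its call without ATV-TfR pool 1 (edgeR adjusted p = 0.0854), ATV-TfR pool 2 (0.185) or control IgG pool 1 (0.0672). Against ATV-CD98hc, Itgae lost it without ATV-TfR pool 2 (edgeR adjusted p = 0.0998), ATV-CD98hc pool 1 (0.118) or pool 2 (0.0622), and Wdfy4 without ATV-TfR pool 2 (edgeR adjusted p = 0.0675) or ATV-CD98hc pool 2 (0.0622). Within the named clusters 5 and 6 of the 6 passed as lower, where 1.2% and 1.72% of all genes were called lower. Clec9a was at -4.35 (edgeR adjusted p = 2.33e-05) and -4.53 (edgeR adjusted p = 1.52e-05). These clusters were named from lists that hold the same genes, so their values there are a description. The same clusters held 4 cDC1-like barcodes with ATV-TfR.

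Of the cDC2 list, Clec10a, a lectin that binds galactose-type glycans, had 42.4 and 128 CPM with ATV-TfR, 6.63 and 33.2 CPM with ATV-CD98hc and 13.7 and 14.9 CPM with control IgG. Over all 370 barcodes it missed the threshold against control IgG (2.49, SE 0.68, edgeR adjusted p = 0.0520) and missed it against ATV-CD98hc (2.43, SE 0.68, edgeR adjusted p = 0.163). The named clusters were made from these barcodes and named from lists that hold Clec10a and Mgl2. Values of both genes within them are therefore a description and not a further test. There Clec10a was higher with ATV-TfR by 2.89 (SE 0.61, edgeR adjusted p = 0.00951) and 2.60 (SE 0.62, edgeR adjusted p = 0.0202). Mgl2, a related lectin, was higher than in control IgG in the named clusters (2.97, SE 0.67, edgeR adjusted p = 0.0144), and was 1.10 (SE 0.60, edgeR adjusted p = 0.510) over all 370. Against ATV-CD98hc it had no call in the named clusters, at 238 and 108 CPM with ATV-TfR and 34.9 and 157 CPM with ATV-CD98hc. The list genes Itgax, Irf4 and Tnip3 had no call there in either comparison.

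The 10 markers of the rule admitted the barcodes, so their levels by pool are given as a description and the calls among them support nothing. Cd209a, a lectin that binds mannose-type glycans (GRCm38 chromosome 8, 3743397 to 3748984), had 110 and 128 CPM with ATV-TfR, 15.5 and 11.1 CPM with ATV-CD98hc and 44.6 and 18.6 CPM with control IgG. Ccr2 varied least, at 396 to 507 CPM over the 6 pools. Chil3 was at 161 CPM in ATV-CD98hc pool 2 and at 741 to 1542 CPM in the other pools. Plac8 was at 1124 and 1355 CPM with ATV-TfR, 1023 and 382 CPM with ATV-CD98hc and 888 and 622 CPM with control IgG.

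Plasmacytoid genes were high with ATV-CD98hc. Siglech (GRCm38 chromosome 7, 55768178 to 55778925) had 106 and 177 CPM there, 2.49 and 31.3 CPM with ATV-TfR and 6.86 and 7.45 CPM with control IgG. Its difference from control IgG was 4.15 (SE 0.70, edgeR adjusted p = 0.00720), and ATV-TfR minus ATV-CD98hc was -3.05 (SE 0.57, edgeR adjusted p = 0.0488). Of the 6 list genes, 4 were tested and 3 passed as higher than in control IgG, where 1.56% of all genes were called higher. Ly6d and Klk1 had UMIs in the ATV-CD98hc pools only and passed the filter on low counts through them. The count is therefore a description and supports nothing about the list. Ly6d, at 47 UMIs in ATV-CD98hc and 0 in control IgG, was at least 13.9-fold higher, and Klk1, at 32 and 0 UMIs, at least 9.44-fold higher, each against a floor of 3 UMIs over the group. All Ly6d and Klk1 UMIs lay in the 6 plasmacytoid DC-like barcodes, as did 68 of the 96 Siglech UMIs, and 25 selected barcodes held Siglech. ATV-CD98hc pool 1 had 2 of the 6 and pool 2 had 3. Without ATV-CD98hc pool 2, Siglech in ATV-TfR minus ATV-CD98hc was -2.71 and lost its call. Ly6d and Klk1 lost their calls against control IgG without ATV-CD98hc pool 2, without control IgG pool 1 and without control IgG pool 2. Without control IgG pool 1, Siglech against control IgG was 4.18 (edgeR adjusted p = 0.0519). Elane, the neutrophil elastase gene, had 256 and 7 UMIs in the ATV-CD98hc pools against 1 and 0 in control IgG and 0 in ATV-TfR, so 1 pool carried almost all of it.

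Of the MHC class II genes, 2 of 10 tested fell with ATV-TfR against control IgG, where 1.16% of all genes were called lower. H2-Ab1, a beta chain (GRCm38 chromosome 17, 34257689 to 34269419), had 2265 and 1813 CPM with ATV-TfR, 2705 and 4644 CPM with ATV-CD98hc and 7336 and 3915 CPM with control IgG. It passed against control IgG at -1.51 (SE 0.36, edgeR adjusted p = 0.0212), as did H2-Oa at -2.24 (SE 0.46, edgeR adjusted p = 0.00851). The median over the 10 was -1.19, against 0.0021 over all genes. Cd74, H2-Aa and H2-Eb1 gave differences that did not pass. H2-Ab1 lost the call without control IgG pool 1 (-0.87, edgeR adjusted p = 0.120) and without ATV-TfR pool 2 (-1.34, edgeR adjusted p = 0.191), and H2-Oa without control IgG pool 1 (-1.64, edgeR adjusted p = 0.134). Within the named clusters H2-Ab1 gave -0.97 and missed the threshold (edgeR adjusted p = 0.0644), and H2-Oa kept the call at -2.35 (edgeR adjusted p = 0.00667).

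Some interferon-stimulated genes were lower with both ATVs than with control IgG. Isg15, a ubiquitin-like protein (GRCm38 chromosome 4, 156199424 to 156200818), had 74.7 and 48.4 CPM with ATV-TfR, 66.3 and 33.2 CPM with ATV-CD98hc and 178 and 253 CPM with control IgG, with no overlap. The differences from control IgG were -1.81 (SE 0.34, edgeR adjusted p = 0.00513) and -1.98 (SE 0.36, edgeR adjusted p = 0.0101). Ifit3 was lower in both comparisons too, by -2.93 and -3.45. In all, 2 of 9 tested genes of the list passed as lower with ATV-TfR (median -1.04, against 0.0021 over all genes, of which 1.16% were called lower). With ATV-CD98hc 3 passed (median -1.30, against 0.022 over all genes, of which 0.17% were called lower), where Irf7 joined them. Irf7 lost that call without either ATV-CD98hc or either control IgG pool (edgeR adjusted p = 0.0578 to 0.294) and in the named clusters (-1.14, edgeR adjusted p = 0.333). Within the named clusters, 1 of 8 passed in each, Ifit3 with ATV-TfR (-2.20, edgeR adjusted p = 0.0339) and Isg15 with ATV-CD98hc (-1.81, edgeR adjusted p = 0.0417). Of all genes in that fit, 1.2% were called lower with ATV-TfR and 0.0679% with ATV-CD98hc. Isg15 in ATV-TfR missed the threshold without pool 2 (-1.52, edgeR adjusted p = 0.0516), and Ifit3 missed it in both comparisons without control IgG pool 2 (-1.96 and -2.50, edgeR adjusted p = 0.231 and 0.183). Cxcl10, an interferon-induced chemokine, had 120 and 659 CPM with control IgG and 19.9 and 0 CPM with ATV-CD98hc. Of its UMIs over all treatments, 171 came from 1 barcode of sub-cluster 9.

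Astrocyte list genes were among the higher calls. All 6 astrocyte list genes passed as higher with ATV-TfR (median 4.82, against 0.0021 over all genes, of which 3.71% were called higher) and 4 with ATV-CD98hc (median 3.35, against 0.022 over all genes, of which 1.56% were called higher). Of the latter, Mt3 lost its call without ATV-CD98hc pool 2 (edgeR adjusted p = 0.0781) and without control IgG pool 1 (edgeR adjusted p = 0.157). Slc1a2, the glutamate transporter of astrocytes (GRCm38 chromosome 2, 102658659 to 102790784), had 735 and 1452 CPM with ATV-TfR, 435 and 582 CPM with ATV-CD98hc and 3.43 and 29.8 CPM with control IgG. Among the genes with the largest rise over control IgG, Gabrb1, Gm3764, Nlgn1 and Dgkb had 0 UMIs in control IgG and were at least 59.5-fold, 54.8-fold, 39.9-fold and 28.5-fold higher with ATV-TfR, against a floor of 3 UMIs over the group. With ATV-CD98hc, Gm3764, Gabrb1 and Nlgn1 were at least 24.5-fold, 22.1-fold and 17.7-fold higher. Most UMIs of these genes lay outside the named clusters. With ATV-TfR they had 240 Gabrb1, 221 Gm3764, 161 Nlgn1 and 115 Dgkb UMIs over all 370 barcodes. Inside the named clusters the 2 ATV-TfR pools held 3 and 8, 6 and 3, 3 and 4, and 3 and 2 in that order. None of these genes was tested there. The summed astrocyte level was 2811 and 4643 CPM in the ATV-TfR pools, 1273 and 2056 CPM in ATV-CD98hc and 10.3 and 443 CPM in control IgG, with sub-cluster 5 absent from control IgG. Within the named clusters the sums were 238 and 1368, 222 and 540, and 12.9 and 563 CPM. In these clusters 3 of the 6 astrocyte genes passed as higher in ATV-TfR minus control IgG, where 0.679% of all genes did. The 4 that passed with ATV-CD98hc over all 370 were not called there (edgeR adjusted p = 0.435 to 0.997). In the low bins, astrocyte barcodes numbered 13764 and 16220 with ATV-TfR, 12032 and 14034 with ATV-CD98hc and 16 and 40 with control IgG. The part of astrocyte RNA in the calls was not tested.

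Among the genes with the largest falls against control IgG, Dcn, Mgp and Coch encode extracellular matrix proteins. Coch had 42 UMIs in control IgG and 0 with either ATV, at least 18.8-fold lower with ATV-TfR and at least 15.8-fold lower with ATV-CD98hc. Dcn had 64 UMIs in control IgG, 1 with ATV-TfR and 0 with ATV-CD98hc. Mgp had 110 UMIs in control IgG and 1 with ATV-TfR. Most of these UMIs lay outside the named clusters, which held 0 Coch UMIs in every pool and, in control IgG, 2 Dcn and 19 Mgp UMIs. Without ATV-CD98hc pool 1, Coch against ATV-CD98hc was not called (-7.51, edgeR adjusted p = 0.0661). Cldn1 had 42 UMIs in control IgG against 1 with ATV-TfR. Unlike the matrix genes, all its control IgG UMIs lay in the named clusters, 30 and 12 per pool, with 0 there in ATV-TfR. It passed in these clusters too (edgeR adjusted p = 0.00026). The ATV-CD98hc pools held 19 and 9 Cldn1 UMIs there. Ccl2, the ligand of Ccr2, had 7 and 131 UMIs in the control IgG pools, so it rests on pool 2; the difference with ATV-TfR was -3.84 (SE 1.03, edgeR adjusted p = 0.0498) and the arms overlapped. Without control IgG pool 2, Ccl2 in ATV-TfR minus control IgG was -0.61 (edgeR adjusted p = 0.931), and Dcn lost its call against both ATVs (edgeR adjusted p = 0.115 and 0.130).

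A few other genes passed. Nkg7, a granule protein of cytotoxic lymphocytes, had 125 and 154 CPM with ATV-TfR, 130 and 150 CPM with ATV-CD98hc and 3.43 and 29.8 CPM with control IgG, and was higher with either ATV by 3.05 and 3.06 (edgeR adjusted p = 0.00167 and 0.00639). The NK cell-like cluster held 12, 8 and 4 barcodes of the 3 treatments in that order, with 0 in control IgG pool 1. That pool has no negative library, and 13 of the 24 lay in negative bins. In the positive bins alone the differences were 5.26 and 5.62 (edgeR adjusted p = 0.000238 and 0.000243). These rest on few barcodes of the NK cell-like cluster. In the low, medium and high bins it held 1, 2 and 1 with ATV-TfR and 1, 6 and 0 with ATV-CD98hc. Each of these bins held 0 with control IgG, so the control was near the floor. The named clusters held 0 Nkg7 UMIs. Mki67, a protein of dividing cells, was lower with ATV-TfR than with control IgG, at -1.39 (edgeR adjusted p = 0.0332), and so was the scavenger receptor Cd36, at -1.33 (edgeR adjusted p = 0.0490). Both lost the call without ATV-TfR pool 2 (edgeR adjusted p = 0.292 and 0.4996) and without control IgG pool 1 (edgeR adjusted p = 0.232 and 0.228). Within the named clusters neither passed, with Mki67 at -3.33 (edgeR adjusted p = 0.172) and Cd36 at -0.81 (edgeR adjusted p = 0.358). Between the ATVs, Thbs1, which encodes thrombospondin 1, had 53 and 15 UMIs with ATV-TfR and 0 with ATV-CD98hc, at least 19.1-fold higher. Thbs1 lost its call without ATV-TfR pool 1 (edgeR adjusted p = 0.0968). Fcgr3 was higher with ATV-TfR than with ATV-CD98hc in the named clusters alone (1.43, SE 0.37, edgeR adjusted p = 0.0365), and 0.95 (SE 0.32, edgeR adjusted p = 0.284) over all 370.

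**Figure D5:**
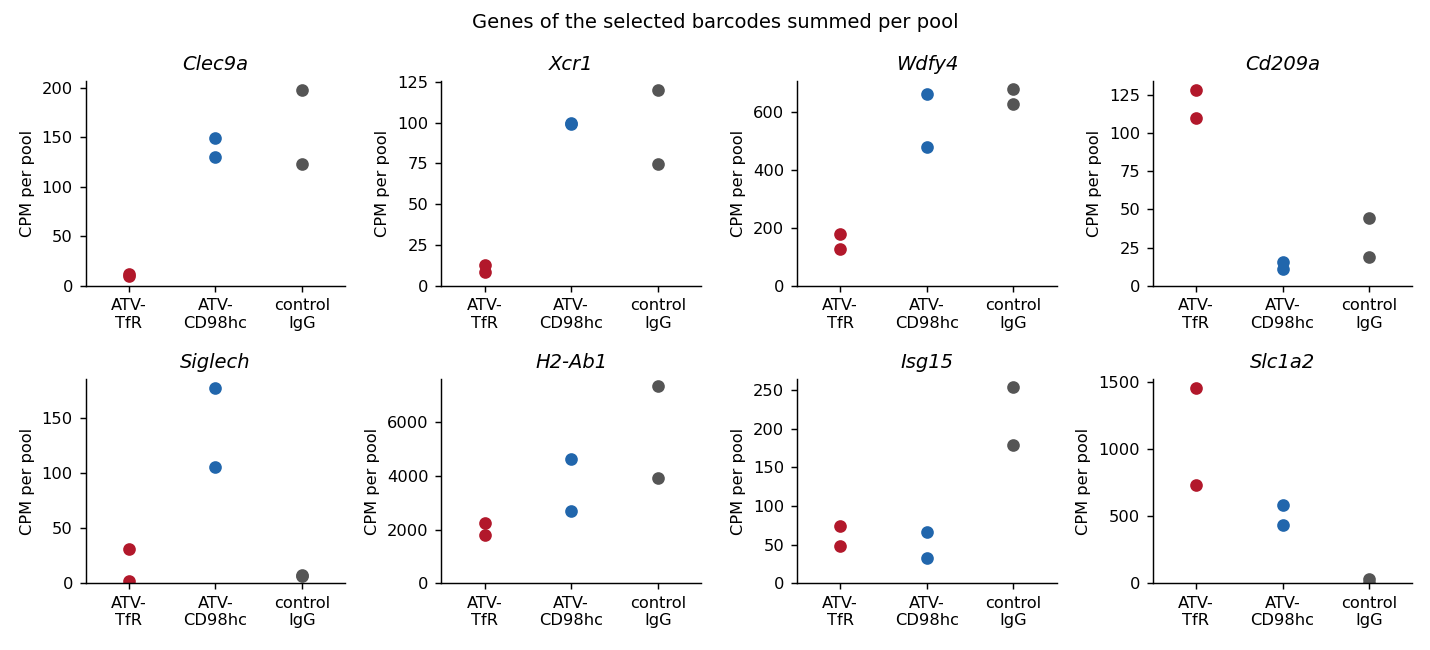
CPM of 8 genes in the selected barcodes summed per pool (points; 2 pools per treatment, linear axes from 0). The ATV-TfR pools lie below the other pools for Clec9a, Xcr1 and Wdfy4 and Siglech is highest in the ATV-CD98hc pools; Cd209a, a marker of the rule, is shown as a description.

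Genes were not compared between AF647-positive and negative bins, because the negative pools held 2 to 12 selected barcodes, under the 20 set as the minimum for a sum. The high bin had 1 to 9 per pool.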

How the data were processed

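The data are droplet single-cell RNA sequencing counts of 23 sorted libraries. Per the file headers, the authors' deposited matrix was made with Cell Ranger 7.1.0 and holds raw UMI counts, 1 whole number for each gene in each barcode. The other deposited files (unit: other) give barcodes, genes and the library of each barcode. The submitters' processing notes also name Seurat 4 and 5 and the builds mm10 and GRCm38, while the sources used here do not give the annotation release or the cell calling. Gene positions are from GENCODE vM21 on GRCm38.

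The members and gene lists were chosen with earlier results of these data known. Named genes were, per comparison, the 5 called genes of largest rise and 5 of largest fall with at least 30 UMIs and no overlap between arms, called genes of the lists, and fixed receptor, MHC class II and monocyte genes. Cells were classed by listed markers, and selected barcodes were clustered with Leiden in scanpy 1.11.5 (Python 3.11.15) at resolution 0.5, with no doublet removal in the values given. Clusters were named from marker lists. Some genes the rule names are not reported here. Cell numbers and summed UMIs were tested with edgeR 4.0.16 (R 4.3.3), Benjamini-Hochberg adjusted over 16 classes or all 6470 genes at 0.05, with all 3 treatments in 1 fit (16 classes, 23 libraries; 6470 genes, 6 pools). Alternative fits with fewer classes or genes were adjusted over those they held, as with the immune or non-endothelial offset and the named clusters. Pools are labelled as separate pairs of animals. CPM are summed UMIs scaled to 1000000. On simulated data with 200 genes changed 4-fold in ATV-TfR minus control IgG (6470 genes), the test recovered 51.5% of them, and 1.90% of its calls were false. The simulation assumed the same fixed spread for every gene and changed only genes above a set level. Its rates therefore need not hold for the real sums.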

Additional observations from a re-analysis of the deposited data

Results flagged for a closer look

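The change in the number of selected barcodes from the negative to the high bin differed between treatments, by edgeR's interaction term over 16 cell classes. ATV-TfR minus control IgG gave -5.01 on the log2 scale (edgeR adjusted p = 0.00289), and ATV-CD98hc minus control IgG gave -5.16 (edgeR adjusted p = 0.00988). The control IgG negative bin is a single library, so both rest on it and its spread is taken from the other groups. With the non-endothelial offset neither difference was called, and with the immune offset both turned positive. The selected share of kept barcodes was lower in the high than in the negative bin in 2 of 2 ATV-TfR pools and 2 of 2 ATV-CD98hc pools, and higher in the high bin in the 1 control IgG pool with both bins. The endothelial class holds most barcodes of the high ATV bins and few of the high control IgG bins (18045 of 19551 in ATV-TfR pool 1 and 11 of 526 in control IgG pool 1).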

How the results depend on the processing

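The direction of the bin comparisons depended on the denominator. With barcodes outside the endothelial class, the slope per bin was 0.60 for ATV-TfR and 0.52 for ATV-CD98hc, and with immune barcodes it was 1.07, 0.29 and, for control IgG, -0.14. By male cells alone the slopes were -0.60 for ATV-TfR and -0.56 for ATV-CD98hc and passed (permutation, adjusted p = 0.0476 and 0.0238), and by female cells alone they were -0.12 and -0.10 (permutation, adjusted p = 0.771 each). For ATV-TfR the slope was -0.0014 with at least 4 markers and -0.088 in the named clusters. Leaving out a replicate gave slopes of -0.26 to -0.20, -0.67 to -0.29 and -0.19 to 0.71. For cell numbers, high minus negative in ATV-TfR passed with DESeq2 (-1.50) and with the replicate block (-1.47). With the non-endothelial offset, high minus negative was 2.37 in ATV-TfR and 2.20 in ATV-CD98hc, and with the immune offset 4.14, 1.04 and, in control IgG, 0.65. The differences in that change were -0.0036 for ATV-TfR minus ATV-CD98hc with the replicate block and 3.11 with the immune offset. Against control IgG they were -0.80 and -0.97 with the non-endothelial offset and 3.49 and 0.38 with the immune offset. For ATV-TfR minus ATV-CD98hc, the negative bin gave -0.39 without barcodes holding other-lineage UMIs, -0.10 in the named clusters and -0.82 with the immune offset, the low bin 0.82 and the high bin 2.28 with the immune offset. The medium bin gave 1.39 with DESeq2, -1.14 with the non-endothelial offset and 1.79 with the immune offset. For ATV-TfR minus control IgG, the immune offset gave -1.11, 1.43 and 2.37 in the negative, medium and high bins, and the non-endothelial offset -0.71 in the high bin. For ATV-CD98hc minus control IgG, the negative bin gave 1.19 without other-lineage UMIs and 0.50 in the named clusters. The medium bin gave -0.36 with the immune offset, and the high bin -1.59 with the non-endothelial and 0.093 with the immune offset. Among the bin pairs added after seeing the data, low minus negative in ATV-TfR was 2.92 and medium minus low in ATV-CD98hc 1.33 with the immune offset, and high minus medium in ATV-TfR was 1.34 with the non-endothelial offset.

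Leaving out a replicate moved high minus negative from -1.51 to -1.37 in ATV-TfR, -2.76 to -0.94 in ATV-CD98hc and 3.32 to 3.54 in control IgG. It moved the differences in that change from -0.53 to 1.29 (ATV-TfR minus ATV-CD98hc), -5.05 to -4.79 and -6.30 to -4.48 (against control IgG). In the medium bin, ATV-TfR minus control IgG ran from -3.75 to -2.36. The negative bin of control IgG has no fit without pool 2.

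The number of called genes in ATV-TfR minus control IgG was 203 with DESeq2, 667 with no filter on low counts, 201 without other-lineage UMIs and 83 in the named clusters. In ATV-CD98hc minus control IgG it was 72, 335, 65 and 13, with 186 under the replicate block and 192 in the positive bins alone. In the low bin alone, an alternative added after seeing the data, it was 122 of 3765 genes. The ATV-TfR low bins held 17 and 15 selected barcodes, too few for such a sum. In ATV-TfR minus ATV-CD98hc it was 7, 201, 1 and 111, with 76 under the block, 81 in the positive bins and 36 without doublets. Leaving out a pool gave 194 to 407, 53 to 198 and 15 to 85. Of 59 calls of named genes that the rule did not use, 24 of the 38 tested in the named clusters kept the call, 27 of 46 without other-lineage UMIs and 38 of 59 with DESeq2, and none changed sign in any of the 16 settings counted. Same-numbered pools of different treatments deviated together little (correlations 0.0456, 0.0934 and 0.0752), so numbers do not pair them across treatments, and the block kept all 59 calls. Gene tests within the negative or high bin, and of positive against negative bins, were not run for want of barcodes.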
